A study of Arabidopsis thaliana with 6 samples.

Results

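The regions described here are the places around the 5 Arabidopsis thaliana centromeres where a capture of the noncoding RNA HID1 gave a peak after glutaraldehyde fixation and no peak after formaldehyde fixation. HID1 is an RNA known for acting downstream of the red light receptor phytochrome B, and the study asks how it promotes seed germination by holding down the synthesis of abscisic acid. Chromatin isolation by RNA purification (ChIRP) pulls down an RNA with biotinylated antisense probes and sequences the DNA that comes with it. All libraries came from wild-type Col-0 seeds that had received 5 min of red light, the condition that activates phytochrome B, and then 48 h of darkness. The series has 6 samples in 3 groups of 2, namely HID1 probes, mock capture with unlabelled probes, and input. Only the HID1 probe libraries were used. The HID1 probe libraries differ in their fixative, 1% formaldehyde, a reversible cross-linker, in one and 1% glutaraldehyde, a non-reversible one, in the other, each applied for 20 min. There is 1 library per cross-linker, so cross-linker and library cannot be told apart, no value has a replicate check, and no difference described below was tested.

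Regions were chosen by measured peak positions. A region was included if its glutaraldehyde peak had its midpoint in the pericentromeric intervals and shared no base with a formaldehyde peak. The intervals ran from 11.5 to 17.7 Mb on chromosome 1, 1.1 to 7.2 Mb on chromosome 2, 10.3 to 17.3 Mb on chromosome 3, 1.5 to 6.3 Mb on chromosome 4 and 9 to 16 Mb on chromosome 5 (TAIR10), together 31.1 Mb. Of the 6306 glutaraldehyde peaks 1087 lay in the intervals, and 917 of these, or 84.4%, met the rule. Over the nuclear chromosomes 92.3% of glutaraldehyde peaks overlapped no formaldehyde peak, so lacking a formaldehyde partner is the usual state of a peak in this library. That absence was used to choose the regions and is not a result.

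Pericentromeric DNA of Arabidopsis is packed as heterochromatin, rich in transposable elements and their remains and in DNA methylation, and it holds few active genes. The satellite arrays of the centromeres themselves are largely missing from the assembly. Small RNAs made by the RNA-directed DNA methylation pathway help to keep the transposable elements of the chromosomes silent. In a gene table such as the one used here, inactive gene copies and many transposon-derived loci may be listed as pseudogenes, and whether the pseudogene entries below are transposable elements was not checked.

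Although chosen for lying in gene-poor sequence, the glutaraldehyde-only regions had a larger share of midpoints in protein-coding genes than these genes have of the bases, and a smaller share in pseudogenes. Protein-coding bodies made up 21.8% of the bases of the intervals and held 351 of the 917 midpoints, 38.3% (95% exact binomial interval 35.1 to 41.5%). Pseudogene bodies made up 27.4% of the bases and held 148 midpoints, 16.1% (13.8 to 18.7%). Flanks of 1 kb on either side of protein-coding genes held 167 midpoints, 18.2%, on 13.2% of the bases. Noncoding RNA bodies held 30, or 3.27%, on 1.23% of the bases. The remaining intergenic sequence held 221, or 24.1%, on 36.3% of the bases. These and all later intervals cover counting error only.

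Expressed per Mb of each kind of sequence, coding genes around the centromeres carried glutaraldehyde-only peaks at a density somewhat below that of the arms. Pseudogenes, flanks and other intergenic sequence were further below the arms, except for the flanks of chromosome 5. Density in protein-coding bodies was 51.8 midpoints per Mb (95% exact Poisson interval 46.5 to 57.5) in the intervals and 55.9 (54.0 to 57.9) on the arms. In pseudogene bodies it was 17.3 per Mb (14.7 to 20.4) in the intervals and 50.7 (40.8 to 62.1) on the arms. In intergenic sequence beyond the flanks it was 19.6 per Mb (17.1 to 22.3) against 59.3 (54.3 to 64.6). The intervals of the densities overlapped for coding bodies and were apart for pseudogene bodies and intergenic sequence. The flanks had 40.6 per Mb (34.7 to 47.3) around the centromeres, between coding and other intergenic sequence, and 53.1 (49.8 to 56.5) on the arms, below both. Noncoding RNA bodies, with 30 midpoints, had 78.2 per Mb (52.7 to 112) and on the arms 68.1 (54.0 to 84.8).

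The rule itself touches this pattern, because formaldehyde peaks of the intervals lay most often in pseudogene entries and remove glutaraldehyde peaks there. Of the 170 removed peaks 71 had their midpoint in a pseudogene body and 36 in a protein-coding body. With the removed peaks put back, the density over all 1087 glutaraldehyde peaks of the intervals was 57.1 per Mb in protein-coding bodies, 25.7 in pseudogene bodies and 24.0 in other intergenic sequence. Coding bodies thus stood above pseudogene and intergenic sequence in both counts, while the latter changed places (17.3 and 19.6 per Mb for the 917). Removal by the rule accounts by construction for the difference between both counts.

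**Figure D1:**
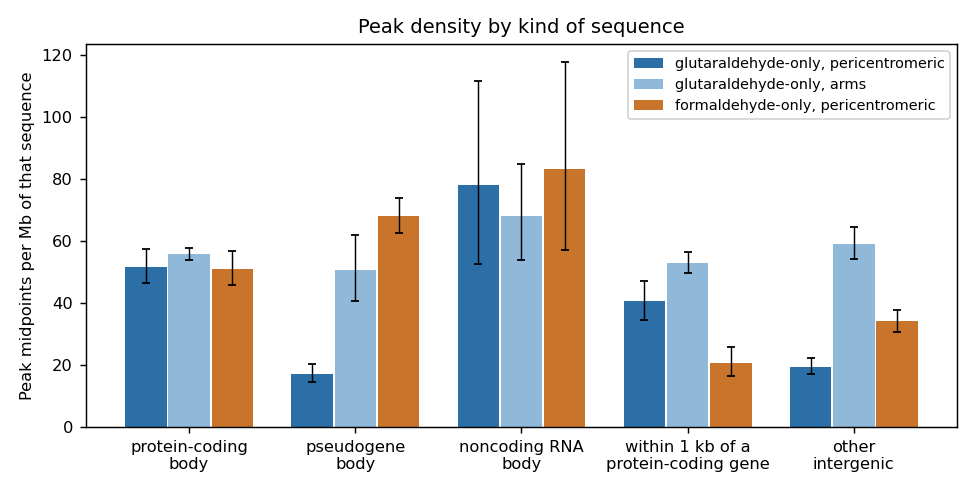
Peak midpoints per Mb of sequence (y axis) in 5 kinds of sequence (x axis), for the 917 glutaraldehyde-only pericentromeric peaks, the 4905 glutaraldehyde-only peaks of the arms and the 1431 formaldehyde-only pericentromeric peaks; bars are the densities and error bars 95% exact Poisson intervals. The 3 bars in protein-coding bodies stand near 51.8, 55.9 and 51.1, and in pseudogene bodies at 17.3, 50.7 and 68.1.

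Coding bodies stood above pseudogene bodies and other intergenic sequence on each chromosome. In protein-coding bodies the density of glutaraldehyde-only regions was 47.8 per Mb on chromosome 1, 48.4 on chromosome 2, 50.8 on chromosome 3, 53.4 on chromosome 4 and 57.7 on chromosome 5. Coding bodies of the arms had 53.6, 55.5, 53.9, 57.6 and 59.5 per Mb in the same order, more on each chromosome. In pseudogene bodies the highest value was 22.9, on chromosome 3, and in other intergenic sequence it was 23.9, also on chromosome 3. On the arms of the same chromosomes the pseudogene density lay between 41.9 and 59.3 per Mb. The flanks of chromosome 5 had 57.0 per Mb in the interval, level with its coding bodies, and 52.6 on the arms, while on the other chromosomes flanks had 32.0 to 39.0 in the intervals and 50.2 to 56.7 on the arms.

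Formaldehyde-only peaks of the same intervals had another distribution. Of the 1431, 581 (40.6%) had their midpoint in a pseudogene body and 346 (24.2%) in a protein-coding body. Their density in coding bodies, 51.1 per Mb, was near that of the glutaraldehyde-only regions, and that in pseudogene bodies was 68.1. These 2 sets thus met the coding genes of the intervals about equally often per Mb and the pseudogene entries unequally. The sets share no bases by construction, so this does not describe the whole libraries, whose depth is unknown. All 1087 glutaraldehyde peaks of the intervals had 57.1 per Mb in coding and 25.7 in pseudogene bodies. Formaldehyde-only peaks were also wider, with a median of 887 bp against 598 bp.

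Pooled over the 5 chromosomes, the glutaraldehyde-only regions thinned out from the edges of the intervals inwards, though not steadily on every chromosome. Within 1 Mb of an interval's edge there were 438, or 43.8 per Mb (95% exact Poisson interval 39.8 to 48.1), between 1 and 2 Mb from the edge 316, or 31.6 per Mb (28.2 to 35.3), and farther in 163, or 14.7 per Mb (12.5 to 17.1). Coding bodies made up 38.9%, 19.8% and 8.19% of the bases of these zones. The share of midpoints in coding bodies was 49.3%, 31.0% and 22.7% in the same order, and that in pseudogene bodies 9.82%, 19.0% and 27.6%. Per Mb of coding body the zones held 55.6, 49.6 and 40.7 midpoints, a smaller spread than that of the densities over all bases. Median scores were 71.9, 72.0 and 70.3, almost level from the edge to the core. Formaldehyde-only peaks held 41.9, 48.1 and 47.8 per Mb in these zones.

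**Figure D2:**
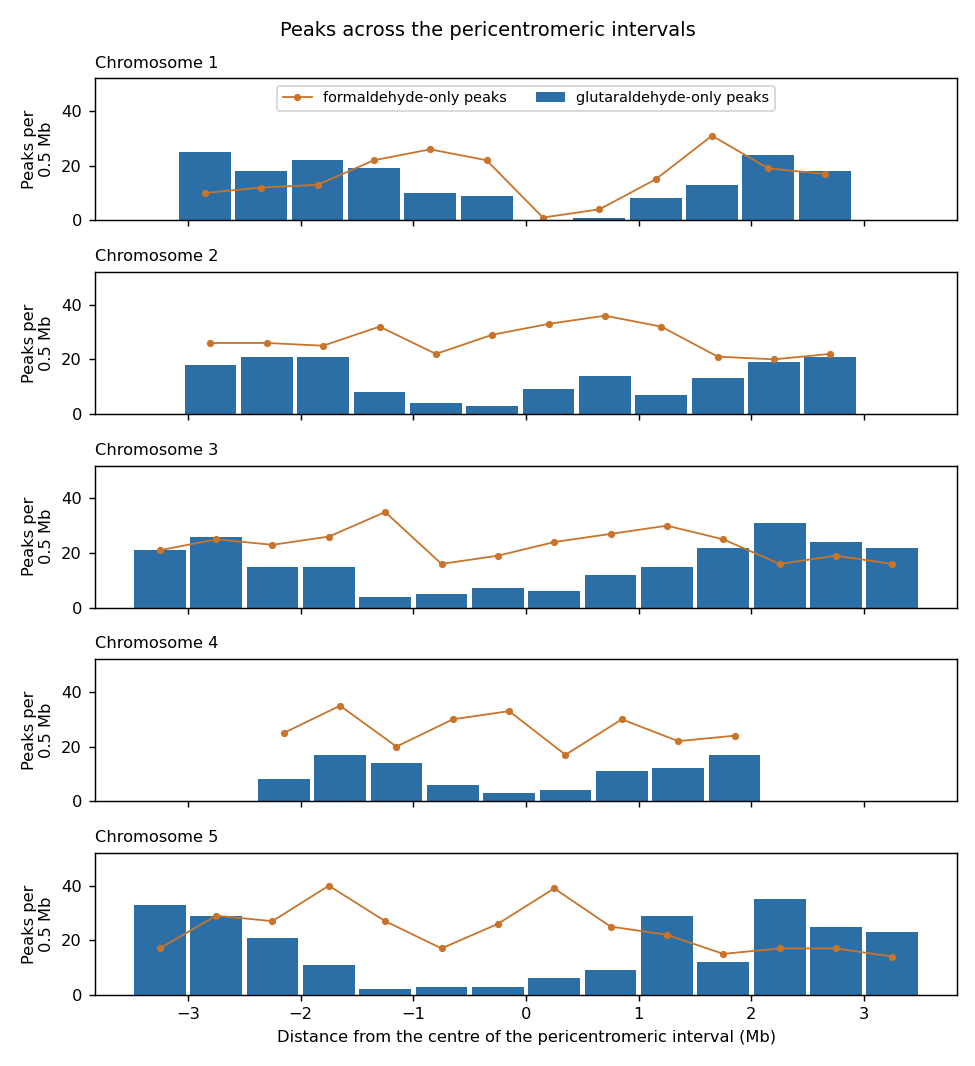
Peaks per 0.5 Mb bin (y axis) against the distance of the bin from the centre of its pericentromeric interval in Mb (x axis), 1 panel per chromosome; bars are glutaraldehyde-only peaks and the line formaldehyde-only peaks. The bars are mostly taller towards the edges of the intervals and low near the centre, where 1 bin of chromosome 1 holds none.

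Over the 61 bins of 0.5 Mb the number of glutaraldehyde-only regions had a median of 14 and a highest value of 35. It went with the percentage of coding bases (Pearson's r = 0.81, Spearman's rho = 0.84, across bins of 1 library, which are not independent). For formaldehyde-only peaks r was -0.34 and rho -0.36 over the same bins. These correlations are descriptions, since neighbouring bins share chromatin and all bins share the library.

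**Figure D3:**
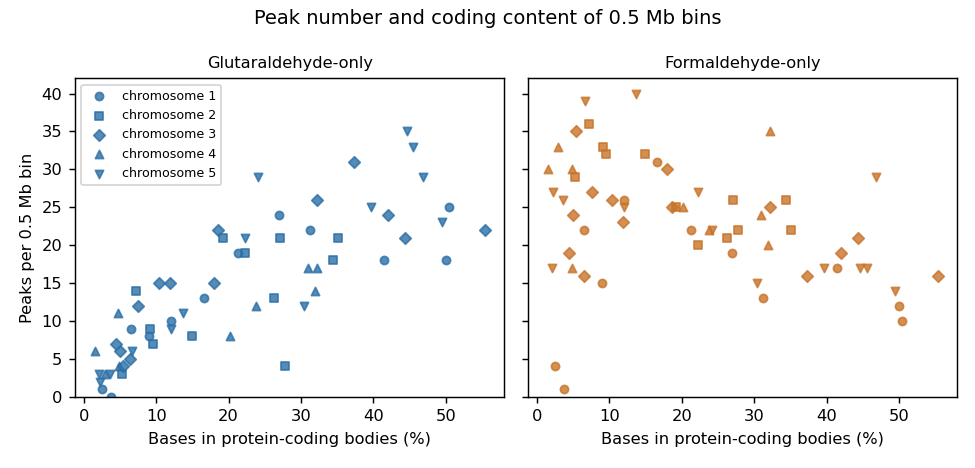
Peaks per 0.5 Mb bin (y axis) against the percentage of the bin's bases in protein-coding bodies (x axis) for glutaraldehyde-only (left) and formaldehyde-only peaks (right); each point is 1 of 61 bins and its shape marks the chromosome. Glutaraldehyde-only peaks are more numerous in bins with more coding sequence (r = 0.81), and formaldehyde-only peaks are not (r = -0.34).

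By chromosome the 917 regions fell into 177 on chromosome 1, 165 on chromosome 2, 225 on chromosome 3, 109 on chromosome 4 and 241 on chromosome 5. Their density ran from 22.7 per Mb on chromosome 4 to 34.4 on chromosome 5, against 54.1 to 59.3 per Mb for glutaraldehyde-only peaks on the arms. The longest stretch without a region lay on chromosome 1, 945 kb between 14499279 and 15444635, and it held 4 formaldehyde-only peaks. On chromosome 2 the longest was 424 kb, between 3130650 and 3554738, with 16 formaldehyde-only peaks in it. The longest stretches were 244 kb on chromosome 3, 305 kb on chromosome 4 and 376 kb on chromosome 5. They held 20, 19 and 4 formaldehyde-only peaks in the same order.

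The regions were close to the arm peaks of their library in height. The score is the authors' value from the peak caller, and it ranks peaks within 1 list. The median score of the 917 was 71.7 (95% interval 69.6 to 73.8, from order statistics), with a lowest value of 50.1 and a highest of 424. Glutaraldehyde-only peaks of the arms had a median of 71.9. A score of 100 or more was reached by 208 regions, 22.7%, against 22.4% of all glutaraldehyde-only nuclear peaks. The median width was 598 bp (interquartile range 558 to 702) against 635 bp on the arms. Across the 917, higher scores went with larger widths (Spearman's rho = 0.39, n = 917), and both come from the same reads.

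**Figure D4:**
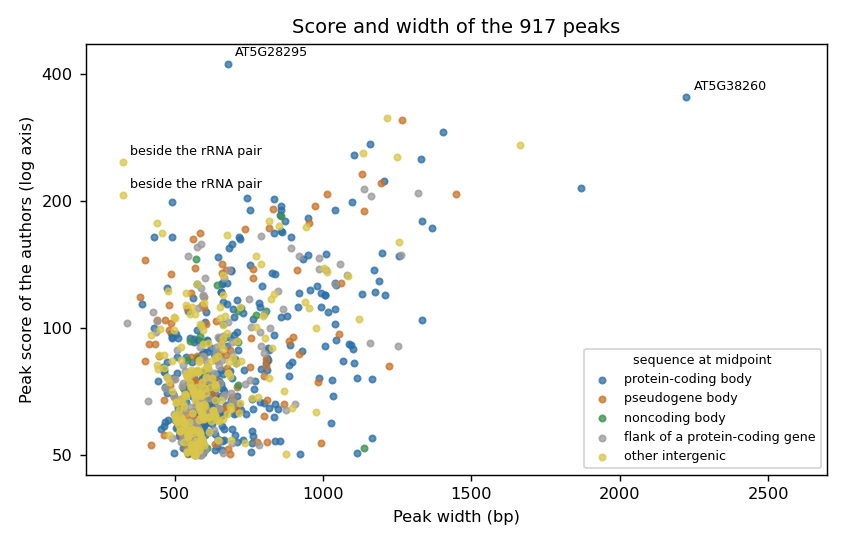
Peak score of the authors (y axis, log scale) against peak width in bp (x axis) for the 917 glutaraldehyde-only pericentromeric peaks, coloured by the sequence at the midpoint. Most points lie below a score of 100 and near 598 bp; AT5G28295 has the highest score, 424, AT5G38260 the widest peak, and 2 narrow peaks of 326 bp with scores of 248 and 207 lie beside the ribosomal RNA pair of chromosome 3.

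The rule has sharp edges. Among the regions just inside it, the peak on chromosome 5 from 10222689 to 10223357 at the pseudogene AT5G28250 (score 64.7) adjoined a formaldehyde peak with 0 bp between them, and the peak on chromosome 2 from 6436252 to 6436836 at AT2G14940 (score 70.5) lay 14 bp from one. Just outside it, the peak on chromosome 5 from 15907817 to 15908523 (score 117) overlapped a formaldehyde peak by 1 bp and the peak on chromosome 1 from 17678974 to 17679513 (score 98.1) by 2 bp. Such neighbours were few. Of the 917 regions 104 had a formaldehyde peak within 1 kb, the median distance to the nearest was 6057 bp, and the longest 56997 bp. At the edges of the intervals, the region on chromosome 5 from 9001477 to 9003139 had its midpoint 2307 bp inside, and a peak on chromosome 3 from 17303851 to 17304460 had its midpoint 4155 bp outside.

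Counting every gene body with at least 1 bp in a region, 644 of the 917 regions touched a gene entry and 273 (29.8%) touched none. They met 652 entries, of which 409 were protein-coding genes, 180 pseudogenes and 63 noncoding RNA genes. The 409 were 12.1% of the 3383 protein-coding genes of the intervals (95% exact binomial interval 11.0 to 13.2%), where over all nuclear protein-coding genes 15.6% had a glutaraldehyde-only peak. The 180 were 4.77% of 3777 pseudogene entries (4.11 to 5.49%), where the share over all nuclear pseudogene entries, most of which lie in the intervals, was 6.09% and that on the arms 10.8% (115 of 1066). The 63 were 6.43% of 980 noncoding RNA entries (4.97 to 8.15%), beside 6.45% over the nuclear genome. The coding and pseudogene shares were below the background and the noncoding share near it. In all, 236 regions, 25.7%, lay wholly within the body of 1 protein-coding gene.

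Longer genes are met more easily, and the length of genes differs between intervals and arms. Touched protein-coding genes had a median length of 2516 bp and untouched ones 1588 bp. Among protein-coding genes of 2 to 3 kb 16.5% were touched in the intervals (13.8 to 19.4%) and 17.2% on the arms (16.3 to 18.2%). Among genes of up to 1 kb the shares were 4.35% (3.15 to 5.84%) in the intervals and 7.96% (7.08 to 8.92%) on the arms, and at 1 to 2 kb 9.53% (7.79 to 11.5%) and 12.6% (11.8 to 13.3%). The counting intervals were apart for these shorter genes and overlapped in each class above 2 kb. Pseudogene entries of 3 to 5 kb were touched in 8.08% of cases in the intervals (6.21 to 10.3%) and in 13.4% on the arms (8.78 to 19.3%), with overlapping intervals. At 1 to 2 kb the pseudogene shares were 3.39% (2.30 to 4.80%) and 15.0% (10.6 to 20.3%).

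**Figure D5:**
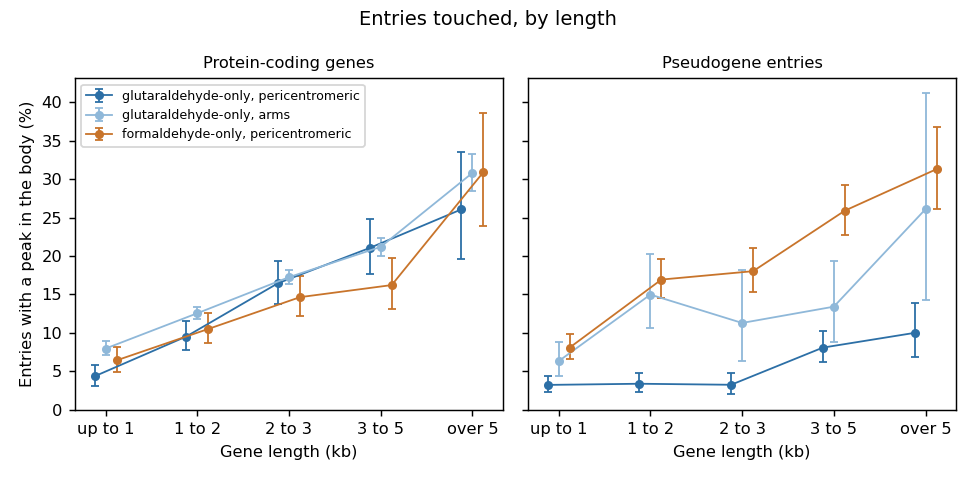
Percentage of protein-coding genes (left) and pseudogene entries (right) with a peak in the body (y axis) by gene length in kb (x axis), for glutaraldehyde-only peaks in the intervals and on the arms and for formaldehyde-only peaks in the intervals; error bars are 95% exact binomial intervals. For coding genes of 2 to 3 kb the glutaraldehyde points of intervals and arms lie together (16.5% and 17.2%); for pseudogene entries the glutaraldehyde-only pericentromeric points are the lowest of the 3 series.

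Formaldehyde-only peaks also touched 409 protein-coding genes of the intervals, a coincidence of counts, and they touched 659 pseudogene entries. Of the 409 coding genes with a glutaraldehyde-only region, 48 also had a formaldehyde peak elsewhere in the body. Of the 180 pseudogene entries 46 did. Over all entries of the intervals 12.1% of protein-coding genes and 17.4% of pseudogene entries had a formaldehyde-only peak, and the rule removes regions that share bases with one, so nothing is read from these overlaps.

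Within coding genes the midpoints were placed much as on the arms. Their median distance from the nearer gene edge was 24.2% of the gene's length, and on the arms it was 23.6%. The gene table gives no strand, so the start and the end of a gene could not be told apart.

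The strongest regions lay at protein-coding genes, pseudogenes and empty sequence alike. The 20 highest scores spanned 208 to 424 and ranks 2 to 105 of the 6306 peaks of the list. Of these 20 regions 10 touched a protein-coding body, 8 of the 20 with the midpoint in it. A midpoint in a pseudogene body was found for 5, and 4 touched no entry. Over all 917 regions 45.8% touched a protein-coding body, 16.1% had their midpoint in a pseudogene body and 29.8% touched no entry. The first of the 20, on chromosome 5 from 10283324 to 10284003, was 680 bp wide, lay in AT5G28295 and had the score 424, rank 2 of the list. Only the peak over the HID1 gene itself (AT2G35747, named from prior knowledge), on an arm and not among these regions, ranked higher. The second, on chromosome 5 from 15283467 to 15285691, lay in AT5G38260 with a score of 353 and was the widest of the 917 with 2225 bp.

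Named genes among the 20 cover several functions. TDF1, which encodes a MYB factor needed in the tapetum of the anther, was touched together with its neighbour AT3G28460 by a region on chromosome 3 from 10673978 to 10675382 (score 292). CPK27, a calcium-dependent protein kinase gene, held one on chromosome 4 from 2384582 to 2385739 (score 274). NAC060, a gene for a NAC transcription factor, held one on chromosome 3 from 15974432 to 15975536 (score 258). Each of these 3 had its midpoint in a coding body and no formaldehyde peak in the gene named. That is the usual state, since 48 of the 409 touched coding genes had such a peak. Its absence is not read as a trait of the genes or runs named here or below.

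ASF1B, which encodes a histone chaperone, held a region on chromosome 5 from 15207743 to 15209072 (score 252). SOS5, the gene of a fasciclin-like arabinogalactan protein of the cell wall, held one on chromosome 3 from 17136910 to 17138115 (score 223). TBL13, of the trichome birefringence-like family of cell wall acetylation genes, held one on chromosome 2 from 6186891 to 6188761, 1871 bp wide, with a score of 215. AT1G43005 and AT5G38810 completed the coding genes of the 20, with scores of 214 and 210 and with the midpoint of the region in the flank. The lncRNA gene AT5G04115 was touched by the region at 9001477 to 9003139 of chromosome 5 (score 272), whose midpoint lay in intergenic sequence.

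The 5 pseudogene entries of the 20 were AT2G05280 (score 313), AT4G03920 (232), AT4G05635 (222), AT2G07730 (208) and AT2G07160 (208). AT2G07730 also had a formaldehyde peak in its body. The last, on chromosome 2 from 2969024 to 2970471, was the 4th widest region with 1448 bp. The widest 5 were those at AT5G38260, TBL13, AT5G04115, AT2G07160 and the pair AT3G28460 and TDF1, all of them also among the 20 highest.

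The 4 without a gene entry lay on chromosomes 2 and 3. The strongest, on chromosome 3 from 15435940 to 15437156 (score 315), lay between AT3G43540 and AT3G00690. Others lay on chromosome 3 from 11980988 to 11982123 between AT3G30390 and AT3G00610 (score 260) and on chromosome 2 from 6562107 to 6563355 between AT2G15120 and AT2G15128 (score 255). The fourth belongs to a group beside ribosomal RNA genes.

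That group is a set of narrow peaks on both sides of the single ribosomal RNA pair of the intervals, AT3G41768 and AT3G41979 on chromosome 3, chosen for description after its values were seen. Ribosomal RNA genes in plants stand in long tandem arrays, of which an assembly shows a few copies. One region ran from 14193811 to 14194136 with a score of 248 (rank 47), between AT3G00660 and AT3G41762. Another ran from 14204220 to 14204545 with a score of 207 (rank 107), between AT3G06365 and AT3G00670. Both were 326 bp wide, the narrowest width of the glutaraldehyde list, where no other peak had it. The remaining region there was 339 bp wide, next in width among the 917, with a score of 103. Within 20 kb of the pair the glutaraldehyde list had 3 peaks and the formaldehyde list 0. No region touched the body of either ribosomal RNA gene.

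Some genes were met more than once. Of the 652 entries 48 were touched by at least 2 regions, 38 of them protein-coding. No such count for another set of peaks stands beside these. Longer genes are met more easily, so repeats are not read as particular to the genes named. TPR3, which encodes a corepressor of the TOPLESS family, was touched by 3, on chromosome 5 from 9508822 to 9509472 (score 95.1), from 9511240 to 9511805 (53.5) and from 9514701 to 9515730 (75.4). The pseudogene AT5G26775 was the other entry with 3, with scores from 53.9 to 84.7, and it also had a formaldehyde peak in its body. DCL3, which encodes the Dicer-like enzyme that makes the small RNAs of RNA-directed DNA methylation, was touched from 15754377 to 15755096 (score 163) and from 15756540 to 15757459 (score 121) on chromosome 3, with no formaldehyde peak.

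The further entries met by 2 regions that stood highest by score were AT3G28460 (292 as the higher score), AT5G38810 (210), CAC2 (199), ATMIN7 (191), AT5G35570 (191), TRM8 (180) and GSL05 (141). CAC2 encodes the biotin carboxylase of the plastid acetyl-CoA carboxylase, which starts fatty acid synthesis. ATMIN7 encodes an exchange factor for ARF GTPases in vesicle traffic, and GSL05 a callose synthase. Formaldehyde peaks lay in ATMIN7, where there were 2, and in none of the other 6.

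Regions also stood in runs. With neighbours up to 10 kb apart joined, 543 regions formed 213 runs of at least 2 and 374 lay alone. Runs were not counted for other sets of peaks. Glutaraldehyde-only peaks were denser on the arms, 55.7 per Mb against 29.5 in the intervals, so the runs are not read as particular to these regions. The 3 longest runs had 6 regions each. The run on chromosome 3 from 16602128 to 16634336 touched SYP72, a syntaxin gene, MLO3, of the MLO family of membrane proteins, IVD, the gene of the mitochondrial isovaleryl-CoA dehydrogenase, and 3 further entries, with scores from 52.2 to 95.5 and 1 formaldehyde peak within it. The run on chromosome 3 from 16025849 to 16057058 touched the coding genes AT3G44370 and AT3G44400, the pseudogenes AT3G44390 and AT3G44420 and a pair of lncRNA entries, with scores from 51.7 to 180 and no formaldehyde peak within it. The run on chromosome 5 from 9404210 to 9417937 touched AT5G26760 and the pseudogene AT5G26775, with scores from 50.7 to 138 and 1 formaldehyde peak within it.

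Of the runs of 5, the longest lay on chromosome 5. That from 9465694 to 9494165 touched TRM8, the GATA factor gene GATA23, AT5G26960, AT5G26990 and the U4 small nuclear RNA gene U4.8. Its scores ran from 51.7 to 180. That from 10265918 to 10293467 held the highest region of all at AT5G28295, beside regions with scores down to 65.7. No formaldehyde peak lay within either of them.

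Genes of chromatin and of RNA-directed DNA methylation were among those touched, a group put together after the values were seen, so its count of 9 touched of 16 has no weight. DCL3 is described above. NERD, which encodes a protein needed for DNA methylation independent of the RNA polymerase RDR2, held a region on chromosome 2 from 7143290 to 7144125 (score 203). CHR38, known as CLASSY 1, encodes a putative chromatin remodeller that helps RNA polymerase IV make small RNA precursors, and held one on chromosome 3 from 14757376 to 14757881 (score 97.2). DRD1, the remodeller that acts with RNA polymerase V, was touched with its neighbour BLH7 on chromosome 2 from 7101319 to 7102010 (score 76.5).

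Further members of that group were MBD02, a gene for a protein with a methyl-CpG-binding domain (score 128), ASF1B (252, described above), IWS1, for a transcription elongation factor (93.9), CHR5, for a remodeller (73.8), and SEF, for a subunit of the SWR1 complex (73.0). HIRA, the histone chaperone gene HMG (SSRP1), the histone deacetylase genes HDA9, hda10, hda17 and HDA3, and AT4G08990 lie in the intervals too and were not touched. A formaldehyde peak lay in 2 of the 16, DRD1 and IWS1.

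Small noncoding RNA genes of the intervals were met by 3 regions. The U4.8 gene (score 76.8), the U6 small nuclear RNA entry U6.10p (54.1) and the microRNA gene MIR849 (63.9) were touched by 1 region each. Thus 2 of the 8 small nuclear RNA genes (25%, 3.19 to 65.1%) and 1 of the 65 microRNA genes (1.54%) were touched. The share of all noncoding entries of the intervals was 6.43%. On the arms 8.11% of small nuclear RNA genes and 4.60% of microRNA genes had a glutaraldehyde-only peak. The region at U4.8 also touched the protein-coding gene AT5G26990, in which its midpoint lay. None of the 62 tRNA genes of the intervals was touched, which allows a share of up to 5.78% (exact binomial upper bound). Of the 24 small nucleolar RNA genes none was touched, which allows up to 14.2%. The arm shares were 3.55% of tRNA genes (20 of 563) and 6.84% of small nucleolar RNA genes (18 of 263). Both lie below these bounds, so the counts of 0 say little. Of 618 lncRNA entries 46 were touched, 7.44% (5.50 to 9.80%), beside 6.71% on the arms.

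Lists of genes set up for the intervals, with earlier results of these data known, are given by their counts, beside the 12.1% touched among all protein-coding genes of the intervals. Among light and clock genes 1 of 6 was touched, PHOT1, the gene of the blue light receptor phototropin, on chromosome 3 from 16820858 to 16821332 (score 83.4). CRY1, PHYC, MYC2, PCL1 and DDB1A were not touched, and CRY1 and DDB1A had a formaldehyde peak. Among hormone and germination genes 1 of 10 was touched, ABCB19, which encodes an auxin exporter, on chromosome 3 from 10874218 to 10874843 (score 59.5). ABF2 and ABH1, known for their part in abscisic acid responses, the gibberellin receptor gene GID1C and the gibberellin synthesis gene GA3 were not touched.

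The group of 8 auxin response factor genes that lie around the centromere of chromosome 1 held no region, and neither did the 10 photosynthesis genes or 8 defence genes listed. Lists this short would hold about 1 touched gene at the share of all genes, so a count of 0 says little. Photosynthesis genes outside the list were touched, among them Lhca5, of the light-harvesting proteins of photosystem I (score 113), and ATPD, for a subunit of the chloroplast ATP synthase (85.5), both named after their values were seen. In the list of nitrilases and fatty acyl reductases 3 of 6 were touched, NIT3 (score 55.5), FAR5 (81.1) and FAR8 (132), all on chromosome 3. NIT3 belongs to the nitrilase family and FAR5 and FAR8 make fatty alcohols of protective lipids. NIT1, NIT2 and FAR4 of the same gene clusters were not touched. Genes of each of these 2 families are close copies of each other, so reads could be split between them, which was not tested. The small lists allow no statement beyond their counts.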

How the data were processed

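Peak lists of 2 HID1 ChIRP libraries were used. Each deposited list gives chromosome, start, end and a score per peak. Per the submitters' processing notes the tools were Bowtie2 2.1.0 and MACS 1.4.2 with TAIR10. In this MACS version a peak's score is a multiple of −log10(p), a property known from the program. The authors called peaks per library. For the control, duplicates, multiply mapped reads and depth the sources used here give nothing.

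Samples were grouped by title, and the cross-linker was read from the sample descriptions. Gene bodies came from the RefSeq table of TAIR10.1, whose nuclear coordinates are from background knowledge those of TAIR10. As a check, the gene AT2G35747 (HID1) lay in the glutaraldehyde peak of rank 1. A midpoint in several bodies was counted as protein-coding before pseudogene before noncoding. Shares have exact binomial and densities exact Poisson intervals (SciPy 1.17.1). No test was made. The overlap and class steps were tested on simulated data. No genome sequence was used. The table has no descriptions, so planned lists by gene description were not made.

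Named are the 20 highest scoring and 5 widest regions, the 10 genes touched most often, the 5 longest runs, touched genes of the lists and small RNA genes. The chromatin genes and the regions beside ribosomal RNA genes were added after their values were seen, as were the counts by chromosome and by distance from the edge and the values over all 1087 peaks. The members and all lists were chosen with earlier results of these data known.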

Additional observations from a re-analysis of the deposited data

How the results depend on the processing

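The number of regions was 1030 when 50% of both peaks had to overlap for removal, 813 when a formaldehyde peak within 1 kb also removed a peak, and 695 and 1187 with the edges 0.5 Mb further in and out, all within 1.5 times 917. It was 208 at a score of 100 or more. In protein-coding bodies the share was 45.8% by any base of the peak, 42.8% at a score of 100 or more and 34.4% with the edges moved in. In pseudogene bodies it was 19.8% by any base and 18.7% with the edges moved in. In flanks it was 12.8% by any base, 10.9% with 500 bp and 25.1% with 2 kb, and in other intergenic sequence 17.0%, 31.4% and 17.2%. Touched protein-coding, pseudogene and noncoding entries numbered 673, 301 and 137 with 1 kb added on either side and 110, 42 and 13 at a score of 100 or more. With the midpoint in the body 35 noncoding entries were touched. The changes by any base, flank width, added 1 kb and midpoint follow from how each alternative counts. A score limit or moved edges give other sets of peaks, and why their shares differ was not tested. Of 46 alternative values 27 stayed in bounds, medians included: within 1.5 times for counts, and within the reported 95% interval for shares and medians, which is narrow for common classes. No replicate could be left out, with 1 library per cross-linker. No paired analysis was possible because the values come from no test and each cross-linker has 1 library. Unknown read depth limits any statement on absent peaks.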
